A study of Mus musculus with 16 samples.

Results

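The genes described here are 43 genes of double-strand break repair and of the Fanconi pathway, together with the kinases that signal breaks, picked by their gene symbols from a table of 45777 genes. All 43 were listed, and all were among the 16209 genes with a count above 0 in every tumor, which were the genes tested. They were measured by RNA sequencing in 16 tumors grown from B16F10 cells, a mouse melanoma line of C57BL/6 origin, that had been injected under the skin of the flank in mice aged 6 weeks. The hosts were lean C57BL/6J mice or obese ob/ob mice, which lack leptin, and tumors were taken pre-therapy or post-therapy, 4 tumors in each of 4 groups. Post-therapy tumors came from mice given etoposide (ETS) intraperitoneally, 5 injections of 20 mg per kg, and pre-therapy tumors came from mice without ETS. All 16 tumors share the same tumor cell line, so host genotype and ETS are the only labelled differences. The ob/ob mutation is carried by the host and not by the tumor cells.

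ETS traps topoisomerase II on DNA that the enzyme has cut, which leaves double-strand breaks. Cells mend such breaks mainly in one of 2 ways. Homologous recombination trims the broken ends back, coats them with a recombinase and copies an intact sister strand, and it is largely limited to cells that have replicated their DNA. End joining ligates the ends directly and works throughout the cell cycle. The Fanconi proteins detect strands that are linked to each other, mark them by attaching ubiquitin to a pair of proteins, and hand the break that follows to recombination. Many recombination genes are transcribed most in dividing cells.

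Total counts were between 47199949 and 61655287 per tumor. Levels are given as CPM (counts scaled to the size of each library, with TMM factors), in the order of the tumor numbers in the labels, and changes as log2 fold changes with their standard error. A change was called at a Benjamini-Hochberg adjusted p under 0.05 over all tested genes in edgeR's quasi-likelihood test. The labels do not say that the tumors of a group came from separate animals, so the p-values measure the spread between these samples. The labels name the source as B16F10 cells of a tumor, and the 11 melanocyte markers summed to between 11388 and 28804 CPM in the 16 tumors. Markers of host cells were present too. Muscle or keratinocyte markers passed 100 CPM in lean tumor 2 before therapy, lean tumors 1 and 2 after ETS and obese tumor 2 after ETS, and results are also given without these 4 tumors where that changed a call.

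Before therapy the members differed widely in level. Per transcript length, in TPM, the Ku subunits were the highest in lean tumors, with Xrcc6 at 87.01 ± 9.61 TPM (SD, n = 4) and Xrcc5 at 71.3 ± 5.89 TPM, followed by Brca1 at 64.01 ± 20.8 TPM, whose spread reached over the mean of Xrcc5. Rad50 at 32.9 ± 6.6 TPM and Nbn at 31.4 ± 4.03 TPM came next and were within their spread of each other. The median member was at 12.5 TPM, 11 members were under 8 TPM, and Fancb was the lowest at 3.03 ± 0.675 TPM. The Ku subunits were also the highest members in obese tumors before therapy, at 86.8 ± 2.32 TPM for Xrcc6 and 65.2 ± 11.1 TPM for Xrcc5. Brca1 was sixth there, at 20.5 ± 2.33 TPM.

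Most of these genes were lower after ETS than before therapy in both hosts. Tumors before and after therapy may also differ in age or size, which was not tested. In lean tumors 27 of the 43 members fell and 2 rose, where 22.8% of all tested genes fell and 21.0% rose (43.8% in either direction). In obese tumors 27 members fell and none rose, against 19.0% and 21.2% of all tested genes (40.2% in either direction). The falls make up 62.8% of the members in each host. Without the 4 tumors with muscle or keratinocyte markers, which leaves 2 lean tumors after ETS, 17 members fell and 1 rose in lean tumors and 27 fell in obese tumors, while the falls over all tested genes went from 3689 to 1528 in lean tumors. No member reached an unadjusted p under 0.05 with a rise in obese tumors, and DESeq2 and the exact test also called 0 rises there. The median log2 fold change of the members was -0.64 in lean and -0.51 in obese tumors, beside -0.01 and 0.01 over all tested genes. Lower after ETS without overlap were 25 members in lean and 25 in obese tumors, beside 20.3% and 17.7% of all tested genes. These counts do not depend on a call, and the obese 25 include Fance, which was not called. Higher without overlap were 2 members in lean and 0 in obese tumors, beside 20.8% and 16.4%. Of the members that fell, 25 fell in both hosts, which is 92.6% of the falls in each, and these comparisons share no tumor. How many of all tested genes fell in both hosts was not counted, so this share has no background beside it. Atm and Dclre1c fell past the threshold in lean tumors alone, and Chek2 and Xrcc6 in obese tumors alone. None of these 4 differed between the hosts in the test of the difference. In bulk tumors, fewer cells of a type and less RNA per cell cannot be told apart.

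**Figure D1:**
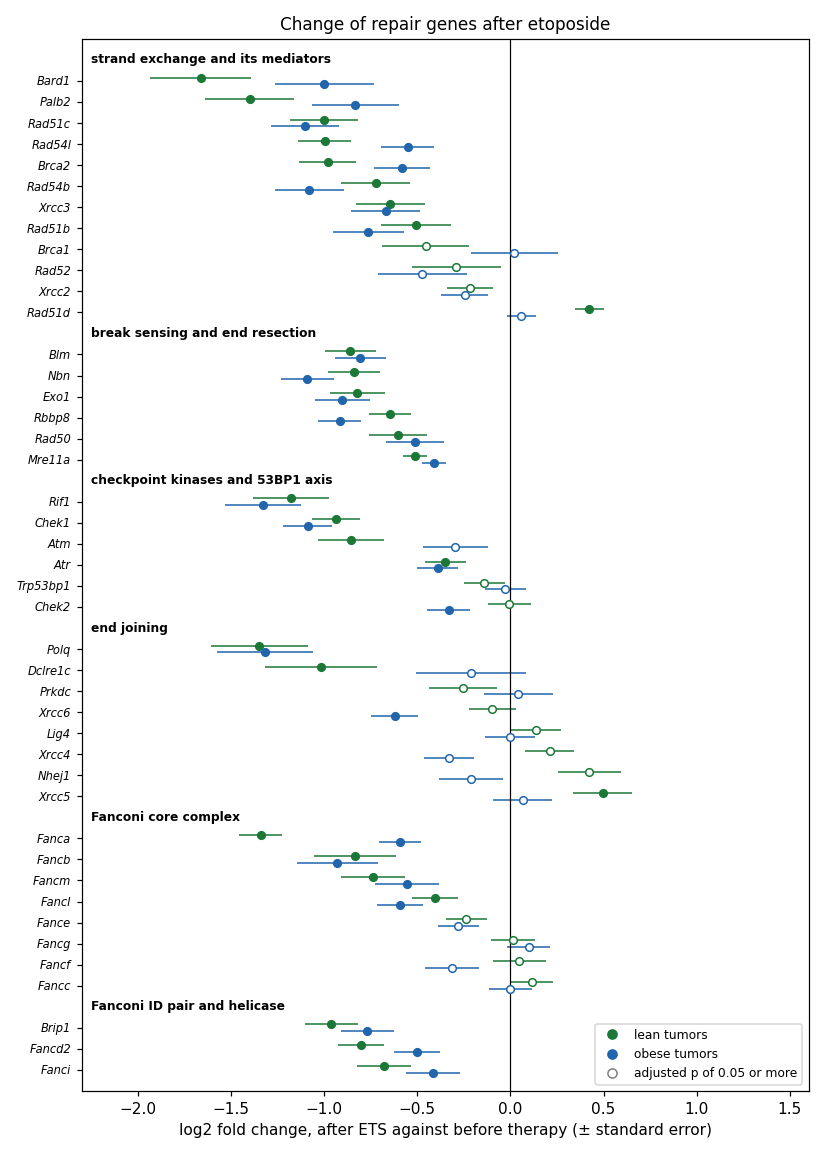
Log2 fold change after ETS against before therapy (x axis, with standard errors) for each of the 43 members (y axis, grouped by role), in lean tumors (green) and obese tumors (blue), 4 tumors per group. Filled points passed an adjusted p of 0.05, and 27 members fell in each host, while Rad51d and Xrcc5 rose in lean tumors.

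The scale matters for small changes. With log2(TPM + 1) in place of scaled counts, the median of all tested genes was itself at -0.28 in lean and -0.05 in obese tumors, while the members' medians were at -0.88 and -0.57. On that scale 35 members fell and 0 rose in lean tumors, where 7281 of all tested genes fell and 1351 rose, against 3689 and 3410 with scaled counts. With each tumor's median shift removed from the TPM values, an alternative chosen after seeing the data, the members' medians were at -0.61 and -0.50. Every member called as fallen or risen in the 2 ETS comparisons kept its direction in all 27 alternatives, and 25 of the 29 calls in lean tumors and 22 of the 27 in obese tumors held in each of them other than the omission of the 4 tumors with muscle or keratinocyte markers. With that omission included, 17 of the 29 and 21 of the 27 held in every alternative.

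Strand exchange genes fell in both hosts except for a few. These 12 genes load the recombinase onto DNA and help it find a partner strand. The same 8 of them (66.7%) fell in each host, beside 22.8% of all tested genes in lean and 19.0% in obese tumors. The medians of the 12 were -0.68 and -0.63. The 8 that fell had log2 fold changes from -0.50 to -1.66 and from -0.55 to -1.10. The smallest of these, of Rad51b in lean tumors (-0.50 ± 0.19), was lost without any 1 of lean tumors 1, 2 and 3 before therapy and 1, 3 and 4 after ETS (adjusted p from 0.0517 to 0.127), without the exclusion of low counts (0.059) and without the 4 tumors with muscle or keratinocyte markers (0.143). The lean call for Xrcc3 was lost without those 4 tumors alone (adjusted p = 0.0992). Bard1 (chr1:71027535-71103141, GRCm38 as for all positions here), the partner of Brca1 in a ubiquitin ligase, had the largest fall of any member in lean tumors. It stood at 12.9, 19.5, 28.2 and 21.4 CPM in the 4 lean tumors before therapy and at 6.93, 4.71, 6.03 and 8.23 CPM after ETS. In obese tumors it stood at 13.2, 12.9, 13.8 and 17.4 CPM before therapy and at 4.42, 5.66, 10.04 and 8.56 CPM after. All tumors after ETS were below all those before therapy in both hosts. The log2 fold change of Bard1 was -1.66 ± 0.27 (adjusted p = 2.53e-04) in the lean host and -1.0 ± 0.27 (adjusted p = 0.00832) in the obese host.

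Palb2 (chr7:122107262-122132980), which bridges Brca1 and Brca2, was among the lowest members. Lean tumors held 6.69, 9.53, 12.2 and 9.18 CPM of Palb2 before therapy and 3.69, 2.74, 3.94 and 3.89 CPM after ETS. Obese tumors held 6.76, 7.88, 8.34 and 7.47 CPM before and 2.81, 3.27, 5.85 and 5.15 CPM after. The groups did not overlap in either host, and the log2 fold changes were -1.40 ± 0.24 (adjusted p = 3.59e-04) and -0.83 ± 0.23 (adjusted p = 0.0115, and 0.0606 without the 4 tumors with muscle or keratinocyte markers). Brca2 (chr5:150522297-150570147) delivers the recombinase to single-stranded DNA. Its level was 30.6, 35.9, 40.3 and 33.8 CPM in lean tumors before therapy and 19.7, 14.5, 21.4 and 15.7 CPM after ETS. The corresponding obese tumors had 30.9, 31.2, 25.6 and 31.9 CPM and 15.6, 21.5, 24.6 and 18.2 CPM. Brca2 was lower in every tumor after ETS than in any before it within each host, with log2 fold changes of -0.98 ± 0.15 in the lean host (adjusted p = 1.80e-04) and -0.58 ± 0.15 in the obese host (adjusted p = 0.0071).

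Rad51c (chr11:87376645-87404954), a paralog of the recombinase, fell in both hosts. Its values were 11.1, 9.91, 10.02 and 10.9 CPM in lean tumors before therapy and 6.29, 5.49, 4.26 and 4.90 CPM after ETS. They were 8.77, 7.66, 12.2 and 10.97 CPM in obese tumors before therapy and 3.39, 5.17, 5.29 and 4.61 CPM after. There was no overlap in either host, and the log2 fold changes were -1.0 ± 0.18 (adjusted p = 5.93e-04) and -1.10 ± 0.18 (adjusted p = 3.84e-04), with a difference of 0.10 ± 0.25 (adjusted p = 0.83). Rad54b (chr4:11558920-11615808), a DNA translocase, was at 17.8, 20.2, 19.1 and 20.4 CPM in obese tumors before therapy and at 8.38, 8.67, 12.9 and 6.80 CPM after ETS, with no overlap and a log2 fold change of -1.08 ± 0.19 (adjusted p = 5.28e-04). In lean tumors Rad54b went from 12.8, 16.01, 22.1 and 18.5 CPM to 10.1, 9.27, 11.6 and 11.1 CPM, a log2 fold change of -0.72 ± 0.19 (adjusted p = 0.0061, and 0.122 without the 4 tumors with muscle or keratinocyte markers). Rad54b shares 39.2% of its exon bases with other annotated genes, mostly with Fsbp on the same strand, so its counts may hold reads of that gene.

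Rad51d (chr11:82871960-82890624), another recombinase paralog, went the other way in lean tumors. Before therapy the lean tumors held 32.2, 31.02, 29.2 and 29.6 CPM and after ETS 40.4, 45.6, 38.1 and 39.4 CPM. Obese tumors held 31.4, 31.3, 31.8 and 27.7 CPM before therapy and 32.8, 33.5, 29.9 and 31.1 CPM after ETS. The lean groups did not overlap and the obese groups did. The log2 fold change was 0.42 ± 0.08 in the lean host (adjusted p = 6.13e-04) and 0.06 ± 0.08 in the obese host (adjusted p = 0.581). On the TPM scale the lean change was 0.04, which is above the median of all genes there but did not pass the test (adjusted p = 0.729), and with the median shift removed it was 0.31 (adjusted p = 0.00703).

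Brca1 (chr11:101488761-101551955), the ubiquitin ligase subunit and scaffold that starts recombination, did not pass the test for ETS in either host. Its values in lean tumors were 233, 136, 213 and 139.7 CPM before therapy and 115, 107, 150.5 and 155 CPM after ETS, and these ranges overlap. Obese tumors had 75.4, 69.3, 59.9 and 67.996 CPM before and 93.4, 83.8, 59.7 and 39.9 CPM after, and here too the ranges overlap. The log2 fold changes were -0.45 ± 0.23 (adjusted p = 0.127) and 0.02 ± 0.23 (adjusted p = 0.956). In lean tumors Brca1 passed the test as a fall with log2(TPM + 1), at -0.88 (adjusted p = 0.00709), and at -0.61 with the median shift removed (adjusted p = 0.0463). Xrcc2 and Rad52, a paralog of the recombinase and a strand annealing protein, passed the test in neither host.

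Promoter sequences of the mouse genome (RefSeq, GRCm38.p6, 250 bases before to 50 bases after a start) were given for 33 of the 43 members, or 76.7%. That is under 80%, so no comparison of members with and without a motif was made. The letters of E2F sites, TTTCCCGC, TTTCGCGC, TTTGCCGC and TTTGGCGC on either strand, occurred in 1 promoter per gene in 2.32% of 27025 genes and in 6 members. E2F factors act on many genes of DNA replication and repair. The letters TTTGAA of a cell cycle element known as CHR occurred in 18.1% of the 27025 genes and in 2 members. Those of the CCAAT box occurred in 37.9% and in 19 members. Each member count is out of the 33 with a promoter. The 6 member windows with E2F letters are shown because 3 of them belong to genes that fell in lean tumors (Bard1, Brca2 and Rad51c) and 3 to genes that did not pass the test there (Chek2, Fancg and Xrcc6). The match is in capitals, and each sequence is 5′ to 3′ on the strand of its gene.
Bard1 (chr1:71103163-71103192, minus strand): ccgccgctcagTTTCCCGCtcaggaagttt
Brca2 (chr5:150522442-150522471, plus strand): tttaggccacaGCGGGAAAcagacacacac
Rad51c (chr11:87404477-87404506, minus strand): gtttccagcgcTTTCGCGCctcttgctcta
Chek2 (chr5:110839820-110839849, plus strand): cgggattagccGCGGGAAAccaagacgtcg
Fancg (chr4:43010335-43010364, minus strand): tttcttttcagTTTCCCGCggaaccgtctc
Xrcc6 (chr15:82016312-82016341, plus strand): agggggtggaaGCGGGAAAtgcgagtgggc
Counted from the start in that table as 0, the first base of the match was at -209 in Bard1, -168 in Brca2, 11 in Rad51c, -152 in Chek2, -52 in Fancg and -46 in Xrcc6. In the GENCODE annotation of the same build the windows of Rad51c, Fancg and Xrcc6 overlap an exon of their gene, and those of Bard1, Brca2 and Chek2 lie outside it. By the gene spans of the RefSeq table, as printed here, the windows of Brca2 and Chek2 lie within the gene, so the 2 annotations differ there. These matches are letters in a window, and of the 3 genes that did not pass the test in lean tumors, Chek2 and Xrcc6 fell in obese tumors.

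Every gene of break sensing and end resection fell in both hosts, where 22.8% (lean) and 19.0% (obese) of all tested genes fell. Mre11a, Rad50 and Nbn form the complex that finds broken ends, Rbbp8 starts their trimming, and Exo1 and Blm extend it. The 6 log2 fold changes lay between -0.51 and -0.86 in lean tumors (median -0.73) and between -0.41 and -1.09 in obese tumors (median -0.85). Nbn (chr4:15957587-15992589) was at 37.7, 39.2, 40.4 and 32.2 CPM in lean tumors before therapy and at 18.4, 17.3, 24.5 and 23.5 CPM after ETS. In obese tumors Nbn was at 33.8, 36.9, 44.4 and 37.3 CPM and 14.1, 20.03, 20.3 and 17.1 CPM. The groups were apart in both hosts, with log2 fold changes of -0.84 ± 0.14 (adjusted p = 3.31e-04) and -1.09 ± 0.14 (adjusted p = 6.95e-05). Mre11a had the smallest standard error of the 6, with a log2 fold change of -0.51 ± 0.06 in lean tumors and -0.41 ± 0.06 in obese tumors. Rad50 changed by -0.60 ± 0.16 in lean tumors, which became -0.43 without the 4 tumors with muscle or keratinocyte markers (adjusted p = 0.106), and by -0.51 ± 0.16 in obese tumors. The obese call for Rad50 was lost without any 1 of obese tumor 2 before therapy and obese tumors 1 and 4 after ETS (adjusted p from 0.0523 to 0.0783).

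**Figure D2:**
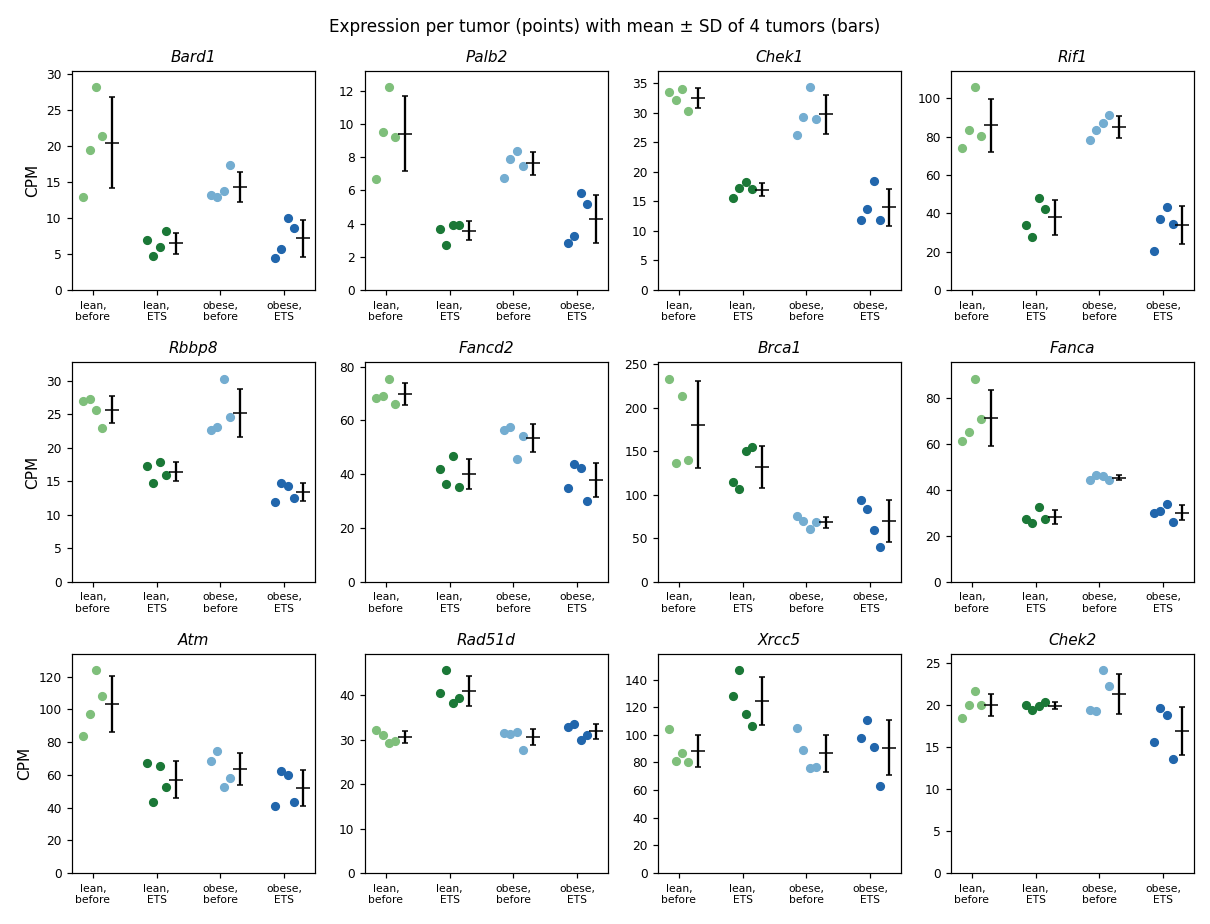
CPM of 12 members in each tumor (points, y axis from 0) in the 4 groups (x axis), with the mean and SD of 4 tumors as bars. Bard1, Palb2, Chek1, Rif1, Rbbp8 and Fancd2 lie lower after ETS in both hosts without overlap, Brca1, Fanca and Atm are lower in obese than in lean tumors before therapy, and Rad51d and Xrcc5 are higher after ETS in lean tumors.

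Checkpoint kinases split. Chek1 (chr9:36708482-36726658), the kinase that acts downstream of Atr at stalled replication forks, was at 33.5, 32.2, 34.04 and 30.2 CPM in lean tumors before therapy and at 15.5, 17.3, 18.2 and 17.0 CPM after ETS. In obese tumors Chek1 was at 26.3, 29.2, 34.3 and 28.9999 CPM before and 11.9, 13.6, 18.4 and 11.9 CPM after. Neither host had any overlap, and Chek1 changed by -0.94 ± 0.13 in the lean host (adjusted p = 8.10e-05) and -1.09 ± 0.13 in the obese host (adjusted p = 4.42e-05) on the log2 scale. Chek2 (chr5:110839800-110874140), the kinase that acts downstream of Atm, was at 18.4, 19.9, 21.7 and 19.95 CPM in lean tumors before therapy and at 19.96, 19.4, 19.9 and 20.4 CPM after ETS. Obese tumors had 19.4, 19.2, 24.1 and 22.3 CPM of Chek2 before therapy and 15.6, 19.6, 18.8 and 13.6 CPM after. The ranges overlap in both hosts. The log2 fold change of Chek2 was -0.01 ± 0.12 in lean tumors (adjusted p = 0.971), with either sign among the alternatives and a fall of -0.36 with log2(TPM + 1) (adjusted p = 0.0369). It was -0.33 ± 0.12 in obese tumors (adjusted p = 0.0334), a call lost without any 1 of obese tumors 3 and 4 before therapy and 1 and 4 after ETS (adjusted p from 0.0794 to 0.111). The difference between the hosts was 0.33 ± 0.16 (adjusted p = 0.196).

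Atm (chr9:53437122-53536828), the kinase that responds to double-strand breaks, was at 84.02, 97.3, 124 and 108 CPM in lean tumors before therapy and at 67.5, 43.4, 65.4 and 52.3 CPM after ETS, with no overlap. Obese tumors had 68.7, 74.5, 52.8 and 58.1 CPM before and 40.996, 62.2, 60.2 and 43.5 CPM after, and their ranges overlap. Atm fell in lean tumors, with a log2 fold change of -0.85 ± 0.18 (adjusted p = 0.00142), and its change in obese tumors was -0.30 ± 0.17 (adjusted p = 0.19). The difference between these changes was -0.56 ± 0.25 and did not pass the test (adjusted p = 0.14). Atr (chr9:95857597-95953217), the kinase that responds to single-stranded DNA, was at 32.8, 37.4, 41.4 and 37.7 CPM in lean tumors before therapy and at 32.9, 31.04, 27.7 and 25.6 CPM after ETS. Obese tumors had 41.6, 39.9, 41.1 and 45.7 CPM of Atr before therapy and 26.4, 31.01, 36.4 and 34.6 CPM after. The lean ranges overlap slightly and the obese ranges do not. Its log2 fold changes were -0.35 ± 0.11 (adjusted p = 0.0179) and -0.39 ± 0.11 (adjusted p = 0.0112). The lean call for Atr was lost without lean tumor 3 before therapy (adjusted p = 0.0603) or lean tumor 4 after ETS (adjusted p = 0.0579) and without the 4 tumors with muscle or keratinocyte markers (adjusted p = 0.0512), and the obese call was lost on the TPM scale (adjusted p = 0.09).

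Rif1 (chr2:52072815-52126769), which works with 53BP1 to hold back end resection, had the largest fall of any member in obese tumors. It was at 74.3, 83.7, 106 and 80.2 CPM in lean tumors before therapy and at 34.2, 27.4, 48.2 and 42.2 CPM after ETS. In obese tumors it was at 78.1, 83.7, 87.1 and 91.5 CPM before and 20.3, 37.3, 43.4 and 34.7 CPM after. No tumor after ETS reached the lowest before therapy in either host, and the log2 fold changes were -1.18 ± 0.20 (adjusted p = 4.11e-04) and -1.33 ± 0.20 (adjusted p = 2.21e-04). Trp53bp1, which encodes 53BP1 itself, did not pass the test in lean (-0.14 ± 0.11) or obese tumors (-0.03 ± 0.11), and 22.1% of its exon bases are shared with Tubgcp4 on the opposite strand.

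Most end joining genes did not pass the test. Of 8 genes, 2 fell (25.0%) and 1 rose (12.5%) in lean tumors and 2 fell (25.0%) in obese tumors. The shares of falls are near those of all tested genes, 22.8% in lean and 19.0% in obese tumors. The medians of the 8 were 0.02 and -0.21. Polq (chr16:37011741-37095419), the polymerase of an alternative joining pathway that needs resected ends, was at 17.4, 23.4, 28.8 and 22.2 CPM in lean tumors before therapy and at 8.23, 7.07, 11.8 and 8.95 CPM after ETS. Obese tumors had 20.01, 26.2, 25.3 and 25.7 CPM of Polq before and 4.99, 9.37, 15.1 and 9.56 CPM after. The groups did not overlap, and the log2 fold changes were -1.35 ± 0.26 (adjusted p = 9.02e-04) and -1.32 ± 0.26 (adjusted p = 0.00128). Without the 4 tumors with muscle or keratinocyte markers the lean change of Polq was -1.13 (adjusted p = 0.0585). Dclre1c (chr2:3424061-3474211), the nuclease Artemis that opens hairpin ends, was at 9.07, 15.2, 15.1 and 11.5 CPM in lean tumors before therapy and at 5.74, 5.69, 5.28 and 8.42 CPM after ETS. In obese tumors it was at 9.32, 11.6, 11.8 and 10.4 CPM before and 4.44, 6.44, 12.6 and 13.8 CPM after, where tumors 3 and 4 were above every obese tumor before therapy. The change was -1.02 ± 0.30 in the lean host (adjusted p = 0.0127) and -0.21 ± 0.29 in the obese host (adjusted p = 0.603), and the lean call was lost without the 4 tumors with muscle or keratinocyte markers (-0.78, adjusted p = 0.203).

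The classical joining factors mostly missed the threshold. Prkdc (chr16:15637444-15842239), the catalytic subunit of DNA-PK, was at 44.9, 38.7, 49.9 and 43.6 CPM in lean tumors before therapy and at 46.3, 30.5, 41.6 and 30.03 CPM after ETS. Obese tumors had 41.2, 40.2, 23.96 and 32.97 CPM before and 29.8, 40.7, 42.3 and 29.6 CPM after. The ranges overlap in both hosts, and the log2 fold changes were -0.25 ± 0.18 (adjusted p = 0.277) and 0.04 ± 0.19 (adjusted p = 0.883). Xrcc5 (chr1:72307417-72394953), the Ku80 subunit that holds broken ends, was at 105, 80.8, 87.2 and 80.1 CPM in lean tumors before therapy and at 128, 147, 115 and 107 CPM after ETS. In obese tumors it was at 105, 89.1, 76.1 and 76.7 CPM and 97.7, 111, 91.5 and 63.3 CPM. Only the lean groups were apart, by a small margin. The log2 fold change of Xrcc5 was 0.50 ± 0.16 in the lean host (adjusted p = 0.0199) and 0.07 ± 0.16 in the obese host (adjusted p = 0.776). The lean call was lost without lean tumor 2 or 4 before therapy or lean tumor 2 after ETS (adjusted p from 0.0559 to 0.0707). The change was 0.30 without the 4 tumors with muscle or keratinocyte markers (adjusted p = 0.299) and 0.16 on the TPM scale (adjusted p = 0.3). Xrcc6, the Ku70 subunit, fell in obese tumors with a log2 fold change of -0.62 ± 0.12 (adjusted p = 0.00147), from 90.3, 93.7, 93.3 and 97.5 CPM to 54.8, 68.6, 67.5 and 52.8 CPM without overlap. Its lean change was -0.10 ± 0.12, and the difference of 0.53 ± 0.18 missed the threshold (adjusted p = 0.0534, and 0.0349 with DESeq2). Lig4, Xrcc4 and Nhej1, the ligase and its cofactors, passed the test in neither host, with log2 fold changes from 0.14 to 0.42 in lean and from 0.00 to -0.33 in obese tumors. With DESeq2, Nhej1 passed as a rise in lean tumors (adjusted p = 0.0222) and Xrcc4 as a fall in obese tumors (adjusted p = 0.031). Nhej1 also passed with filterByExpr (0.043), and Xrcc4 with filterByExpr (0.0447), with log2(TPM + 1) (0.0134) and without the 4 tumors with muscle or keratinocyte markers (0.0399).

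In the Fanconi core complex the same 4 of 8 genes fell in both hosts. These were Fanca, Fancb, Fancl and Fancm, of which Fancl is the ubiquitin ligase and Fancm the translocase that anchors the complex to DNA. Their changes lay between -0.40 and -1.34 in lean and between -0.55 and -0.93 in obese tumors. Without the 4 tumors with muscle or keratinocyte markers, Fancb (adjusted p = 0.0543), Fancl (0.14) and Fancm (0.0674) lost the lean call. Fancc, Fance, Fancf and Fancg passed the test in neither host, with changes from -0.24 to 0.12 and from -0.31 to 0.10. Fance did pass it as a fall on the TPM scale in both hosts, at -0.59 (adjusted p = 3.70e-04) and -0.35 (adjusted p = 0.017), and with DESeq2 it fell in obese tumors too (-0.27, adjusted p = 0.033). The obese groups of Fance did not overlap. Its obese fall passed in 2 of the 16 runs with a tumor left out and in 7 of the 11 other alternatives. The obese call for Fancm (-0.55 ± 0.17) was lost without obese tumor 1 or 4 after ETS (adjusted p = 0.0799 and 0.0581). Fanca (chr8:123266294-123318651), a scaffold of the complex, was at 61.1, 65.0, 88.5 and 70.8 CPM in lean tumors before therapy and at 27.3, 25.7, 32.4 and 27.3 CPM after ETS. Obese tumors had 44.2, 46.3, 46.1 and 44.2 CPM of Fanca before therapy and 29.7, 30.8, 33.7 and 25.9 CPM after. Neither host had any overlap. Fanca changed by -1.34 ± 0.11 in the lean host (adjusted p = 1.94e-06) and by -0.59 ± 0.11 in the obese host (adjusted p = 0.00105).

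The Fanconi ID pair and its helicase fell in both hosts, where 22.8% (lean) and 19.0% (obese) of all tested genes fell. Fancd2 (chr6:113531640-113597020), which the core complex tags with ubiquitin, was at 68.3, 68.99, 75.6 and 66.2 CPM in lean tumors before therapy and at 42.02, 36.2, 46.9 and 35.2 CPM after ETS. In obese tumors Fancd2 was at 56.4, 57.7, 45.8 and 54.1 CPM before and 34.9, 43.7, 42.4 and 30.1 CPM after. No overlap was seen in either host, with log2 fold changes of -0.80 ± 0.12 (adjusted p = 1.76e-04) and -0.50 ± 0.12 (adjusted p = 0.00511). Brip1 (chr11:86058136-86201215), a helicase that binds Brca1, was at 38.2, 38.9, 42.3 and 40.7 CPM in lean tumors before therapy and at 23.2, 19.1, 21.4 and 18.6 CPM after ETS. Obese tumors had 29.9, 29.1, 25.95 and 27.4 CPM of Brip1 before and 13.96, 19.2, 20.8 and 11.997 CPM after. Brip1 was lower in all tumors after ETS than in those before it, with log2 fold changes of -0.96 ± 0.14 and -0.77 ± 0.14. Fanci, the partner of Fancd2, changed by -0.68 ± 0.14 in lean and -0.42 ± 0.14 in obese tumors on the log2 scale, and its obese call was lost without any 1 of obese tumors 1, 2 and 4 before therapy and 1, 3 and 4 after ETS (adjusted p from 0.0524 to 0.092).

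The response to ETS was tested for a difference between the hosts, lean minus obese. It was called for 2 of 43 members, Rad51d, more positive in lean tumors (6.35% of all tested genes), and Fanca, more positive in obese tumors (10.1%), where 16.4% of genes were called in either direction. For Fanca the difference was -0.75 ± 0.16 (adjusted p = 0.00475). It was -0.70 without the 4 tumors with muscle or keratinocyte markers (adjusted p = 0.0551) and -0.56 on the TPM scale with the median shift removed (adjusted p = 0.0571). For Rad51d it was 0.37 ± 0.11 (adjusted p = 0.0321), and this call was lost without any 1 of lean tumors 2, 3 and 4 before therapy, lean tumor 2 after ETS, obese tumors 1, 2 and 3 before therapy and obese tumors 3 and 4 after ETS (adjusted p from 0.0515 to 0.0679), without the 4 tumors with muscle or keratinocyte markers (0.159) and on the TPM scale (0.778). A further 5 members had an unadjusted p under 0.05 and missed the adjusted threshold. They were Xrcc6 at 0.53 ± 0.18, Xrcc4 at 0.54 ± 0.19, Nhej1 at 0.63 ± 0.24, Atm at -0.56 ± 0.25 and Rad54l at -0.45 ± 0.20. With DESeq2, Xrcc4 (adjusted p = 0.0206), Xrcc6 (0.0349) and Nhej1 (0.0361) passed. The median difference over the members was 0.04, beside 0.05 over all tested genes.

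Before therapy, obese tumors held less of 5 members than lean tumors did, and more of none. That is 11.6% of the members, beside 12.9% of all tested genes that were lower in obese tumors, 13.5% that were higher and 26.4% in either direction. No member had an unadjusted p under 0.05 for a higher level in obese tumors, and DESeq2 and the exact test called 0 there. Brca1 differed the most. Its highest obese tumor was at 75.4 CPM and its lowest lean tumor at 136 CPM. The log2 difference, obese minus lean, was -1.41 ± 0.24 (adjusted p = 5.83e-04), or 0.378 of the lean level. Atm followed at -0.70 ± 0.18 (adjusted p = 0.00808), then Fanca at -0.66 ± 0.11 (adjusted p = 6.15e-04), Brip1 at -0.51 ± 0.14 (adjusted p = 0.0143) and Fancd2 at -0.38 ± 0.12 (adjusted p = 0.0303). For all 5 the 4 obese tumors were below the 4 lean ones, and in all 10 members lay so, beside 14.4% of all tested genes. The reverse order held for 1 member, Xrcc4, beside 16% of all tested genes. The first 4 kept their call in every alternative run, and Fancd2 lost it in 6, among them without lean tumor 2 or 3 or obese tumor 3 or 4 before therapy (adjusted p from 0.0566 to 0.0975) and without the 4 tumors with muscle or keratinocyte markers (0.0597). Without those 4 tumors Fancg (0.0324) and Fanci (0.0261) passed as lower in obese tumors. Of the 16 runs with a tumor left out, Fancg passed in 4 and Fanci in 6. Of the 11 other alternatives, Fancg passed in 8 and Fanci in 9. The exact test called 6 members lower in obese tumors and DESeq2 called 7. These comparisons use the same tumors before therapy as the ETS comparisons, so a low start in obese tumors and a smaller fall in them are not separate observations.

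After ETS, 2 members were lower in obese than in lean tumors, 4.7% of the members beside 2.30% of all tested genes (3.28% were higher and 5.58% were called in either direction), and 0 were higher, also with DESeq2 and the exact test and at an unadjusted p under 0.05. Brca1 differed by -0.93 ± 0.24 (adjusted p = 0.0371) and Rad51d by -0.36 ± 0.08 (adjusted p = 0.019). The 4 obese tumors lay below the 4 lean tumors for both, and for 7 members in all, beside 6.85% of all tested genes, and the reverse order held for 0 members, beside 6.39%. The call for Brca1 was lost without any 1 of lean tumors 1, 3 and 4 and obese tumors 3 and 4 after ETS (adjusted p from 0.0511 to 0.0989), with only the groups compared (0.109) and on the TPM scale (0.0671). That for Rad51d was lost with only the groups compared (0.0857), on the TPM scale (-0.19, 0.222), with the median shift removed (0.0508) and without the 4 tumors with muscle or keratinocyte markers (0.0964). Fanca, Atm, Brip1 and Fancd2, the other members that were lower in obese tumors before therapy, differed after ETS by 0.09 ± 0.11, -0.14 ± 0.17, -0.32 ± 0.14 and -0.09 ± 0.12.

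**Figure D3:**
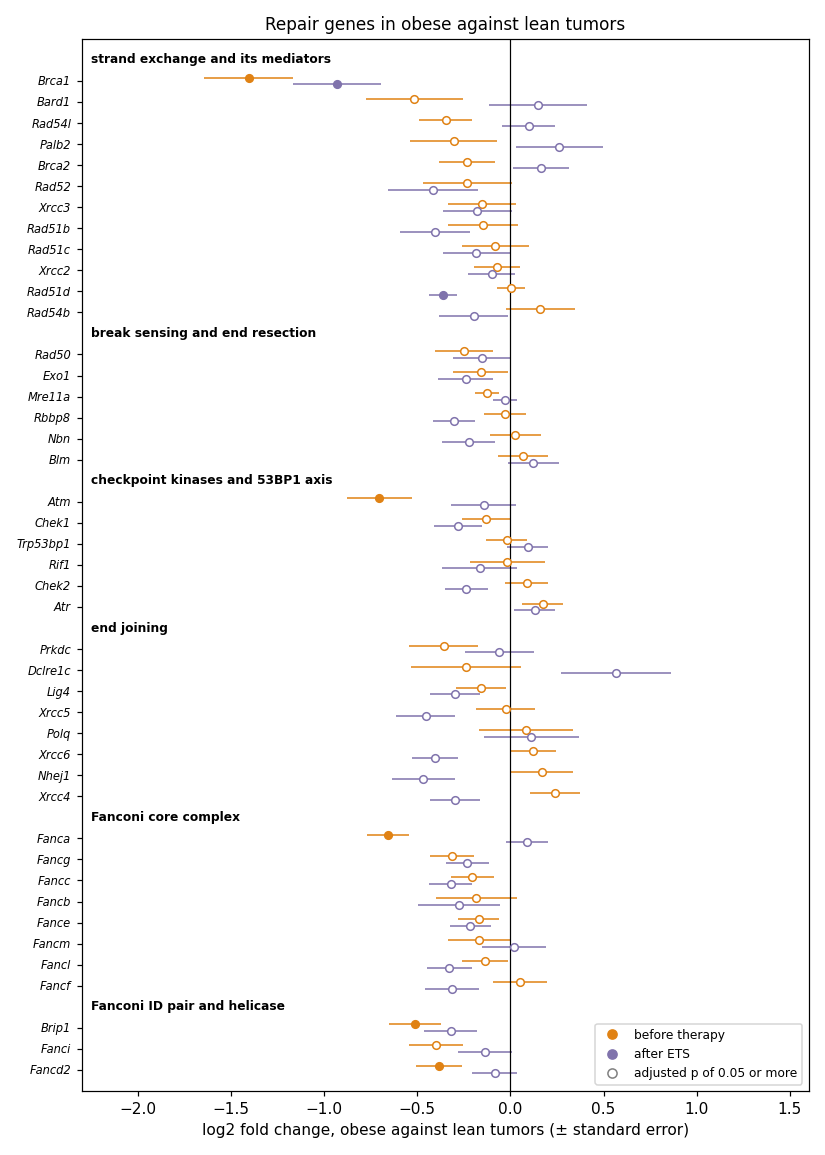
Log2 fold change of obese against lean tumors (x axis, with standard errors) for each member (y axis, by role), before therapy (orange) and after ETS (purple), 4 tumors per group. Filled points passed an adjusted p of 0.05, and Brca1 was lower in obese tumors at both times, at -1.41 and -0.93.

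Other repair genes were read from lists written by hand. Of 56 further genes of double-strand break and Fanconi repair tested, 27 fell and 4 rose in lean tumors and 32 fell and 2 rose in obese tumors, with medians of -0.32 and -0.40. The falls are 48.2% and 57.1% of the list, beside 22.8% and 19.0% of all tested genes. The largest falls were of Rmi2, part of the Blm complex (-1.27 ± 0.18 in lean and -1.44 ± 0.19 in obese tumors), of the resection nuclease Dna2 in lean tumors (-1.21 ± 0.26) and of Usp1, which removes ubiquitin from Fancd2, in obese tumors (-1.32 ± 0.13). Zswim7 and Swsap1, partners of recombinase paralogs, had the largest rises in lean tumors (0.78 ± 0.15 and 0.56 ± 0.15), and Zswim7 and the joining factor Paxx rose in obese tumors (0.40 ± 0.15 and 0.38 ± 0.14). Of 7 mismatch repair genes, 2 fell in lean (28.6%) and 4 in obese tumors (57.1%) and none rose, and Msh3 (-0.54 and -0.81) and Pms1 (-0.42 and -0.87) fell in both. Of 19 genes of base excision and single-strand break repair, 6 fell (31.6%) and 2 rose in lean tumors and 8 fell (42.1%) in obese tumors. The glycosylase Neil3 had the largest fall there (-1.51 and -1.38), followed by Mutyh in lean (-0.98) and Ung in obese tumors (-0.67), while Neil1 and Xrcc1 rose in lean tumors (0.51 and 0.26). Of 18 nucleotide excision repair genes, 4 fell (22.2%) and 3 rose (16.7%) in lean and 5 fell (27.8%) and 2 rose (11.1%) in obese tumors. The lean shares are near those of all tested genes, 22.8% and 21.0%. Ercc5 rose in both (0.73 and 0.46), Cetn2 in lean (0.45) and Ddb1 in obese tumors (0.41), whereas Ercc8 fell in both (-0.88 and -0.96), Uvssa in lean (-1.19) and Gtf2h2 in obese tumors (-0.61).

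Genes of cell division fell alongside the members. Of 31 listed, 28 fell in each host, or 90.3%, with medians of -0.68 in lean and -0.77 in obese tumors. Mki67, a marker of cycling cells, changed by -1.62 ± 0.31 and -1.70 ± 0.31 on the log2 scale. Gins1, a replication factor, was next in lean tumors (-1.19) and the mitotic motor Kif11 in obese tumors (-1.36). The mean log2 CPM of the 31 genes was 6.54 to 6.57 in lean tumors before therapy and 5.81 to 5.96 after ETS, and 6.36 to 6.55 in obese tumors before therapy and 5.45 to 5.89 after. Obese tumors 1 and 4 after ETS had the lowest values of this list, 5.53 and 5.45, and also the lowest means over the 43 members, 3.75 and 3.82, where the other 2 were at 4.03 and 4.13. Lean tumors after ETS did not share this order. There, tumor 2 had the lowest mean over the members, 4.04, but 5.93 for this list. Tumor 4 had the lowest value of this list, 5.81, but 4.09 over the members. The part of a lower share of dividing cells in the falls of the members was not tested. Of 19 genes known as p53 targets, 15 rose in lean (78.9%) and 13 in obese tumors (68.4%), beside 21.0% and 21.2% of all tested genes. None was called as fallen, and the medians were 1.19 and 1.17. The change differed between the hosts for 8, with 7 more positive in lean (36.8%, beside 6.35% of all tested genes) and 1 in obese tumors. Before therapy 10 were higher in obese tumors (52.6%, beside 13.5%) and 1 was lower. Cdkn1a (3.44 ± 0.23) and Eda2r (3.12 ± 0.31) rose the most in lean tumors, and Fas (2.80 ± 0.56) and Eda2r (2.51 ± 0.30) in obese tumors. Fas did not rise in lean tumors, where its change of -0.95 was the lowest of the list and was not called. Its difference between the hosts, lean minus obese, was -3.75.

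**Figure D4:**
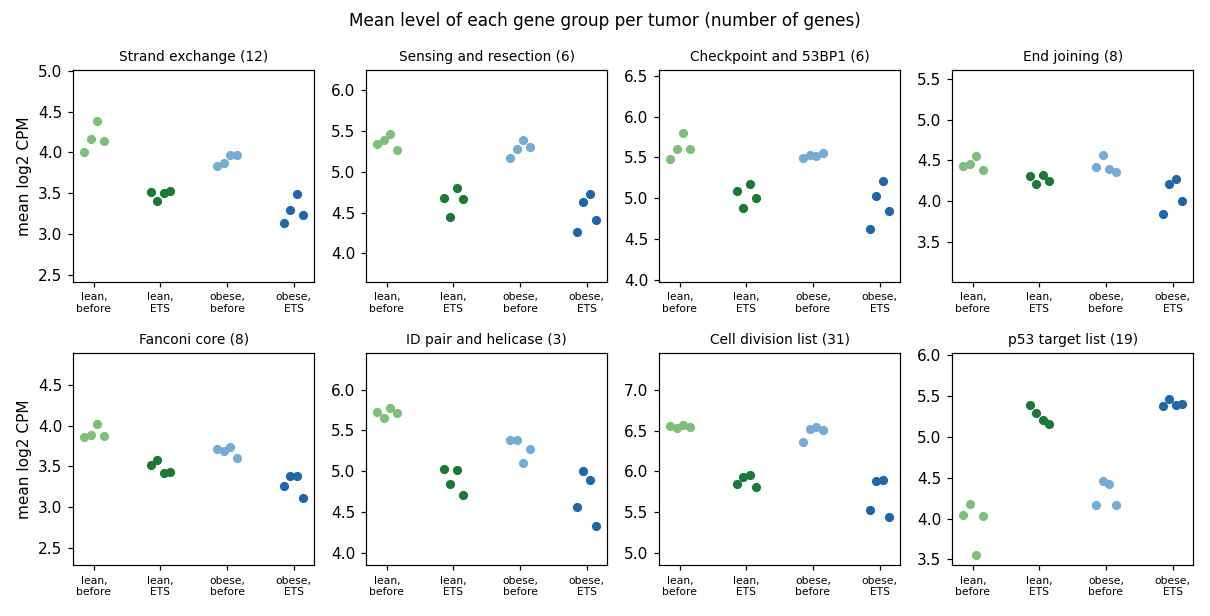
Mean log2 CPM (y axis, each panel spanning the same range) of the 6 groups of members, the cell division list and the p53 target list in each tumor (points) of the 4 groups (x axis). The members' groups and the cell division list lie lower after ETS in both hosts, end joining the least, and the p53 targets lie higher.

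Macrophage markers moved in opposite directions in the 2 hosts, with 8 of 10 tested falling in lean tumors and 8 rising in obese tumors. Of 6 fibroblast markers tested, 3 fell in lean and 6 rose in obese tumors. The 12 macrophage markers summed to 434 to 1383 CPM in lean tumors before therapy and 51.3 to 439 CPM after ETS, and to 43.7 to 272 CPM in obese tumors before therapy and 379 to 1166 CPM after. The 7 fibroblast markers summed to 514 to 2204 CPM and 88.8 to 589 CPM in lean tumors, and to 85.9 to 597 CPM and 595 to 5665 CPM in obese tumors. The 12 T and NK cell markers summed to 57.9 to 94.0 CPM in lean tumors before therapy and to at most 7.86 CPM in every other group, where 1 marker in lean tumors after ETS and 2 in obese tumors before therapy were at 0 in all 4 tumors. The 11 melanocyte markers summed to 19576 to 24952 CPM in lean tumors before therapy, 24797 to 28804 CPM after ETS, 11757 to 16050 CPM in obese tumors before therapy and 11388 to 27086 CPM after. Before therapy the 6 endothelial markers summed to 117 to 144 CPM in lean and 58.5 to 97.0 CPM in obese tumors. The 6 adipocyte markers summed to 10.2 to 25.2 CPM and 13.5 to 100.5 CPM. Fibroblast sums overlapped, with medians of 1160 and 263 CPM. The higher level of Brca1, Atm, Fanca, Brip1 and Fancd2 in lean than in obese tumors before therapy thus stood beside more macrophage, T cell, endothelial and melanocyte markers. The part of any of these cells in that difference was not tested.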

How the data were processed

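RNA of 16 B16F10 tumors, 4 per group, was analysed. The paper's methods give TruSeq Stranded mRNA libraries read as paired ends of 101 bp, and the submitters' processing notes name HISAT2 2.1.0, StringTie 2.1.3b and the mm10 build. The deposited values are counts per gene, not normalized by the authors, beside FPKM and TPM. The authors' FPKM values were deposited but not used. The deposited TPM values served for levels between genes and in alternatives. The sources used here do not state whether counting used strand, so reads of overlapping genes or close paralogs (Rad51b, Rad51c and Rad51d, Rad54l and Rad54b) could be shared or split.

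Genes with a count of 0 in any of the 16 tumors were left out, the exclusion the study's methods describe, leaving 16209 of 45777 genes. Counts were scaled by TMM and fitted with edgeR's quasi-likelihood test (edgeR 4.0.16, R 4.3.3) with a mean per group over all 16 tumors. Contrasts were ETS in lean tumors, ETS in obese tumors, their difference, and obese minus lean before therapy and after ETS, and p-values were adjusted by Benjamini-Hochberg across the 16209 genes. The paper's exact test on counts plus 1 was an alternative, with DESeq2 1.42.0, limma 3.58.1 on log2(TPM + 1) and log2(TPM + 0.1), other filters and size factors, only the groups compared, a replicate block, and each tumor left out. Removal of each tumor's median shift from log2(TPM + 1) and omission of 4 tumors with muscle or keratinocyte markers were chosen after seeing the data. The fit was tested on simulated data. Positions come from the RefSeq table of GRCm38.p6, in which all 43 members matched, and exon overlaps from GENCODE vM21.

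The members and the gene lists were chosen with earlier results of these data known. Named with values per tumor were, in each comparison, the 6 members with the largest called changes per direction whose groups did not overlap (for the difference between hosts, all called), and Brca1, Brca2, Chek1, Chek2, Atm, Atr, Prkdc and Fancd2, and for other lists the 2 largest called changes per direction. Xrcc6, Mre11a, Rad50, Rad51b, Fanci, Fancm, Fance and other members were given values after these were seen.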

Additional observations from a re-analysis of the deposited data

Results flagged for a closer look

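Tumors apart from their group were looked for among 172 sets of 4 tumors (43 members in 4 groups), where the gap from the highest or lowest tumor to its neighbour, over the range of the 4, passed Dixon's critical value. Chance gives a flag in about 1 in 20 sets, and 5 were found. Brca2 was at 25.6 CPM in obese tumor 3 before therapy, below the 30.9 to 31.9 CPM of the others. Rad51d was at 27.75 CPM in obese tumor 4 before therapy, below 31.3 to 31.8 CPM in the others. Polq was at 20.01 CPM in obese tumor 1 before therapy, below 25.3 to 26.2 CPM in the others. In lean tumor 4 after ETS, Nhej1 was lowest at 3.151 CPM, below 4.05 to 4.12 CPM, and Dclre1c was highest at 8.421 CPM, above 5.28 to 5.74 CPM.

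The ETS effect differed between hosts, by the interaction term, for 2 members. For Rad51d the effect in lean minus that in obese tumors was 0.37 on the log2 scale (adjusted p = 0.0321, edgeR's quasi-likelihood test), and for Fanca it was -0.75 (adjusted p = 0.00475).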

How the results depend on the processing

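The counts of members that fell after ETS were within 1.5 times of the reported ones in both hosts under all alternatives run except 1. Without the tumors over 100 CPM of muscle or keratinocyte markers, chosen after seeing the data, which leaves 2 lean tumors after ETS, 17 rather than 27 members fell in lean tumors, and 1 rose. Calls over all genes went from 3410 higher and 3689 lower to 1446 and 1528 there. The 2 rises in lean tumors became 0 with log2(TPM + 1) and 0 with log2(TPM + 0.1). With tumors left out in turn, falls ranged from 25 to 28 in lean and from 23 to 28 in obese tumors, and rises from 1 to 3 in lean tumors, with 1 without lean tumor 2 or 4 before therapy or lean tumor 2 after ETS.

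The difference between hosts rested on few calls. Members more positive in lean tumors numbered 1, against 3 with filterByExpr, 4 with DESeq2, 0 on each of the 3 TPM scales, 0 without the tumors with muscle or keratinocyte markers, and 0 to 3 with a tumor left out (3 without obese tumor 2 after ETS). Those more positive in obese tumors numbered 1, against 0 with the median shift of TPM removed and 0 without the same tumors. Before therapy 5 members were lower in obese tumors, against 8 with only the groups compared, 9 and 9 on the TPM scales with pseudocounts 1 and 0.1, and 4 to 8 with a tumor left out (8 without obese tumor 4 after ETS). After ETS 2 were lower, against 1 without the exclusion of low counts, 0 with only the groups compared, 7 with DESeq2, 0 and 0 on the TPM scales, 1 with the median shift removed, 1 without the tumors with muscle or keratinocyte markers, and 1 to 5 with a tumor left out (1 without lean tumor 1, 3 or 4 or obese tumor 4 after ETS, 5 without obese tumor 2 after ETS). The causes were not tested. Over all tested genes, the host difference after ETS also moved, with 531 genes higher and 373 lower in obese tumors, against 50 and 16 with only the groups compared, 255 and 195 without the exclusion, 975 and 589 with the exact test, 1115 and 939 with DESeq2, 663 and 128 with log2(TPM + 1), and 109 and 76 without lean tumor 4 after ETS. Before therapy log2(TPM + 1) gave 1127 higher and 2765 lower, against 2181 and 2099, and for the difference between hosts 228 and 2239 more positive in lean and in obese tumors, against 1030 and 1630.

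Replicate numbers are shared by the groups, but the labels do not say that they mark pairs, and they were not taken as pairs. Deviations of same-numbered tumors from their group means had correlations from -0.112 to 0.452. Differently numbered tumors were not compared, so these correlations cannot decide whether the numbers mark pairs. With the replicate block, 2 members in place of 1 were more positive in lean tumors and 4 in place of 2 were lower in obese tumors after ETS. The block ended the lean call for Rad51b (adjusted p = 0.0548) and added calls for Nhej1 in lean tumors (0.0397), Fance in obese tumors (0.0329), Xrcc6 for the difference (0.0388), Fancg and Fanci before therapy (0.0478 and 0.0351) and Xrcc5 and Xrcc6 after ETS (0.0274 and 0.046).

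Among the named changes followed through every alternative, signs changed for 3, none of them called. Chek2 in lean tumors was at 0.0065 with filterByExpr, 0.017 without the tumors with muscle or keratinocyte markers, and from -0.046 to 0.035 with a tumor left out. Brca1 in obese tumors was at -0.0073 with the replicate block, -0.13 with log2(TPM + 1), -0.14 with log2(TPM + 0.1), -0.064 with the median shift removed, -0.077 without the tumors with muscle or keratinocyte markers, and from -0.14 to 0.21 with a tumor left out. Prkdc in obese tumors was at -0.038 and -0.043 on the TPM scales, -0.017 without the same tumors, and from -0.10 to 0.135 with a tumor left out. At these depths the lowest member, Fancb, still had CPM above 1 in every tumor.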
